A study of Mus musculus with 15 samples.

Results

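The effect of diabetes on gene expression in the mouse aorta was measured over both genotypes of the study at once. All 15 arrays of the series entered the comparison, 8 from mice labelled diabetic and 7 from mice labelled non-diabetic. Each array held RNA from the whole aorta, root to bifurcation, of 1 male C57BL/6 mouse aged 9 weeks. All mice, controls included, lacked Apoe, the gene of apolipoprotein E, which clears lipoproteins from plasma and without which mice develop atherosclerosis. In 4 diabetic and 4 non-diabetic mice this was the only null allele (Apoe null). The other 4 diabetic and 3 non-diabetic mice carried a second null, in Ager, which encodes RAGE, a receptor of advanced glycation end products (Apoe/RAGE null). To induce diabetes, mice aged 6 weeks received streptozotocin at 65 mg/kg on 5 days in a row, by intraperitoneal injection, and controls received the citrate buffer. Streptozotocin kills the insulin-secreting beta cells of the pancreas, so the model is one of insulin lack. The single nulls were bought from a supplier and the double nulls came from a research laboratory, so genotype and colony cannot be told apart. The diabetes effect was taken as the mean of the diabetic minus non-diabetic differences within each genotype, each with the same weight. It is given in log2 units, where each unit is a fold change of 2.

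Insulin switches on the genes of fatty acid synthesis in fat and liver, largely through the transcription factor SREBP1. Enzymes of this pathway export citrate from mitochondria, turn it into acetyl-CoA and malonyl-CoA, and join these into fatty acids with NADPH as the reductant. High glucose forms advanced glycation end products, which bind RAGE on endothelial cells, smooth muscle cells and macrophages, and raise adhesion molecules in the vessel wall. The aorta also carries white and brown perivascular fat, and adjoining heart, skeletal muscle and airway can come with the dissected vessel.

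The marker check held for the vessel itself. The mean log2 level of 16 smooth muscle contractile genes lay from 10.52 to 11.36 on all arrays, and that of 14 endothelial genes from 6.75 to 7.48. Markers of fat, striated muscle and airway were present too, and are given beside the results they move with. Apoe read from 3.14 to 3.76 (median 3.62) in the diabetic and from 3.20 to 4.04 (median 3.595) in the non-diabetic aortas, and Ager read from 4.17 to 5.36 (median 4.58) in the diabetic and from 4.45 to 5.09 (median 4.69) in the non-diabetic aortas. All groups lacked Apoe. Both Ager ranges mix Apoe null with Apoe/RAGE null arrays, and which part of Ager was deleted is not given in the sources used here. As given here, neither gene therefore checks the labels.

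Several arrays stood apart. Replicate 12, labelled diabetic Apoe/RAGE null, read near the non-diabetic arrays in many of the genes below; blood glucose of single mice was not analysed here. Replicates 9 and 10, labelled diabetic Apoe/RAGE null, read like Apoe null arrays for Decr2, a gene of chromosome 17, which also carries Ager. Decr2 read 5.19, 5.10, 7.40 and 7.56 in the diabetic Apoe/RAGE null aortas of replicates 9 to 12, 6.84, 6.98 and 6.90 in the non-diabetic ones, and 5.71, 5.88, 5.32 and 5.498 and 5.57, 5.84, 5.98 and 6.01 in diabetic and non-diabetic Apoe null aortas. Replicate 10 was the array least like the others, with a median correlation to them of 0.974 against 0.985 to 0.992 for the rest. Its B and plasma cell genes had a mean log2 level of 7.70, against 3.64 to 5.60 on the other 14 arrays. Without replicate 12, or without replicates 9 and 10, a list's count of genes with a p under 0.05 is given beside it where either count was 3 or more and they differed by over 1.5 times. Over all genes that count moved too, from 735 to 1679 higher and from 655 to 1695 lower with single arrays left out. With all arrays it was 1068 higher and 1063 lower.

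Of 45037 probe sets, 1 passed limma with Benjamini-Hochberg adjustment at 0.05, and it was lower in diabetes (0.00222% of those tested). It belonged to Fasn, fatty acid synthase. None passed in the higher direction (0%), where 2240 probe sets (4.97%) had an unadjusted p under 0.05, beside 2259 (5.02%) in the lower direction. The submitters' own threshold was B above 0, meaning that limma's log odds favour a change. It took in 45 probe sets higher in diabetes (0.0999%) and 29 lower (0.0644%). At 1 probe set per gene, 27 of 18193 genes were higher by this threshold (0.148%) and 14 lower (0.077%). Below, "B above 0" names genes past that threshold, and a p is unadjusted unless called adjusted.

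One array decided how many probe sets passed. Without replicate 12, 247 probe sets passed the adjusted threshold, 173 higher and 74 lower in diabetes. All 247 had the same sign over the 15 arrays, 246 had a p under 0.05 there and 61 had B above 0. Without replicates 9 and 10 together, 0 passed and 3 had B above 0. Without replicate 8, a non-diabetic Apoe null array, 4 passed, 3 of them higher. The higher ones included the skeletal muscle transcripts Myh1 and Myhas (adjusted p = 0.027 and 0.0335 in limma). Skeletal muscle genes had a mean log2 level of 7.77 in replicate 8, against 4.39 to 5.37 on the other non-diabetic arrays. Leaving out any other single array left 0 or 1. Replicate 12 stands apart through its values in many of the genes called. A pass without it, here or below, is therefore no independent support.

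Fasn makes palmitate from acetyl-CoA and malonyl-CoA, the last steps of fatty acid synthesis. Its log2 levels were 9.91, 9.99, 9.36 and 9.53 in the 4 diabetic Apoe null aortas and 12.57, 11.55, 11.93 and 12.09 in the 4 non-diabetic ones. They were 10.97, 10.34, 10.39 and 11.76 in the diabetic Apoe/RAGE null aortas of replicates 9 to 12 and 11.88, 11.83 and 12.54 in the 3 non-diabetic ones. Within each genotype all diabetic aortas lay below all non-diabetic ones. Replicate 12, at 11.76, came close to the lowest non-diabetic Apoe/RAGE null array, at 11.83, and lay above the lowest non-diabetic Apoe null array. Fasn fell by 1.78 ± 0.22 (SE) on the log2 scale over both genotypes (adjusted p = 0.0344). The difference was -2.33 ± 0.29 (SE) in Apoe null and -1.22 ± 0.32 (SE) in Apoe/RAGE null aortas. The 2 effects differed by 1.11 ± 0.43 (SE), with a p of 0.0214 that did not pass adjustment (adjusted p = 0.675). With each array left out in turn the difference stayed between -1.92 and -1.66, with adjusted p from 0.00201 to 0.192. The call held without replicates 6, 8 or 12 and was lost without any one of the other 12 arrays. Without replicates 9 and 10 together the difference was -1.67 ± 0.23 (SE), with an adjusted p of 0.368.

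The promoter of the one gene that passed is shown with its CCAAT boxes in capitals, from RefSeq (GRCm38.p6, chr11:120824498-120824797, minus strand, 5′ to 3′, the last 50 bases downstream of the start).
Fasn: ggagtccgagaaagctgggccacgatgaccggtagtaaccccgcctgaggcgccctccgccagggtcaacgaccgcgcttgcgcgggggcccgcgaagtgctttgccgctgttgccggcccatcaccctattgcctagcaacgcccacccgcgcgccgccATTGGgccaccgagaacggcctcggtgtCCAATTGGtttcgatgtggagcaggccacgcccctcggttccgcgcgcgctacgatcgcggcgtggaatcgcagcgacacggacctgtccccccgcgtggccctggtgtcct
The motif CCAAT was searched on both strands and added after the promoters were seen. It lies at positions -90 to -86, -62 to -58 and -59 to -55, counted from the start base as 0, and the last 2 overlap. It was found in 12 of 21 promoters of lipogenesis genes (57.1%) and in 37.4% of all 32851 promoters of this length. Those 21 promoters belong to 17 genes, and the other genes of the list had none to search. TCACNCCAC, a form of the sterol response element that SREBP factors bind, was in none of the 21 and in 1.24% of all promoters. The E-box CACGTG was in 2 of the 21 (9.52%) and in 7.15% of all.

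Fasn had the most negative difference of its pathway's list. All 21 lipogenesis genes on the list were measured, and 7 had B above 0, each lower in diabetes (0.077% of all genes). In 13 the p was under 0.05 in the lower direction, against 5.84% of all genes, and in none in the higher direction. The median difference was -0.86 over the list and -0.01 over all genes. It was -1.16 in Apoe null and -0.55 in Apoe/RAGE null aortas. Without replicate 12, 10 of the 21 passed the adjusted threshold, all lower, as did 74 of all 45037 probe sets in that direction. Without replicates 9 and 10, 13 had a p under 0.05 in that direction and 1 had B above 0.

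**Figure D1:**
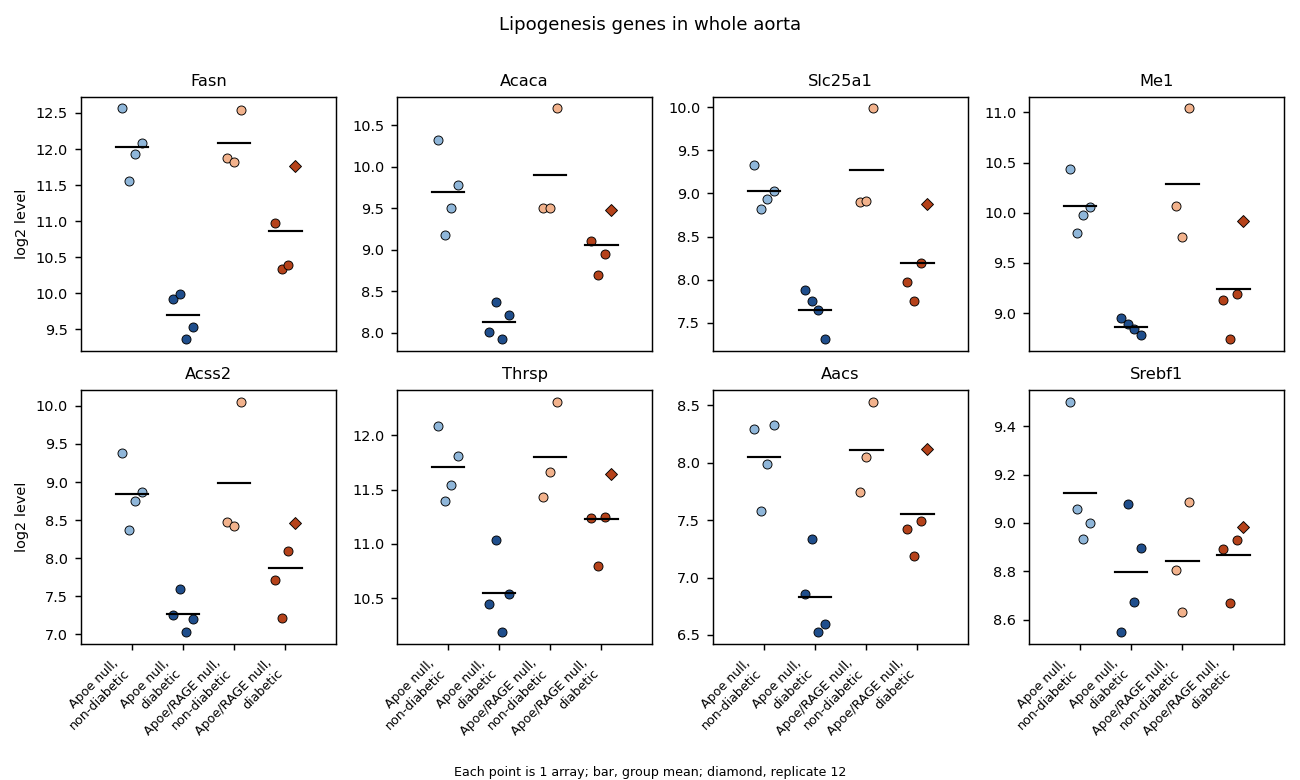
Log2 level of 8 lipogenesis genes on each of the 15 arrays (y axis) by group (x axis); points are arrays, bars group means and the diamond replicate 12. Fasn is at 9.99 or lower in all diabetic Apoe null aortas and at 11.55 or higher in all non-diabetic aortas of both genotypes, while Srebf1 overlaps between the groups.

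The steps before Fasn were followed in order. Slc25a1, the mitochondrial citrate exporter, read from 7.31 to 8.88 (median 7.82) in the diabetic and from 8.82 to 9.99 (median 8.93) in the non-diabetic aortas. The pooled difference was -1.22 ± 0.19 (SE), with -1.37 in Apoe null and -1.07 in Apoe/RAGE null aortas (adjusted p = 0.177). Its diabetic and non-diabetic arrays did not overlap within either genotype. Acly, which splits citrate into acetyl-CoA in the cytosol, differed by -0.96 ± 0.22 (SE) (adjusted p = 0.256). Acss2, which makes acetyl-CoA from acetate, read from 7.02 to 8.47 (median 7.43) in the diabetic and from 8.37 to 10.06 (median 8.75) in the non-diabetic aortas and differed by -1.34 ± 0.25 (SE). Acaca, the carboxylase that makes malonyl-CoA for synthesis, read from 7.92 to 9.48 (median 8.53) in the diabetic and from 9.18 to 10.71 (median 9.51) in the non-diabetic aortas. It differed by -1.21 ± 0.20 (SE) (adjusted p = 0.206) with no overlap within either genotype. Its relative Acacb, which makes malonyl-CoA at mitochondria, differed by -0.80 ± 0.26 (SE) (adjusted p = 0.391).

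Me1, malic enzyme, supplies NADPH for the pathway. It read from 8.74 to 9.91 (median 8.92) in the diabetic and from 9.76 to 11.04 (median 10.06) in the non-diabetic aortas, a difference of -1.12 ± 0.19 (SE), much alike in Apoe null (-1.20) and Apoe/RAGE null (-1.05) aortas. Thrsp, a regulator of lipogenesis in fat and liver, read from 10.19 to 11.64 (median 10.92) in the diabetic and from 11.39 to 12.31 (median 11.66) in the non-diabetic aortas and differed by -0.86 ± 0.17 (SE). Aacs, which activates acetoacetate for lipid synthesis, differed by -0.89 ± 0.17 (SE). Slc25a1, Acaca, Me1, Acss2, Thrsp and Aacs all had B above 0, with adjusted p from 0.177 to 0.206. Without replicate 12 each passed: Slc25a1 differed by -1.33 (adjusted p = 0.00641) and Me1 by -1.24 (adjusted p = 0.00902), with adjusted p from 0.0197 to 0.0288 for the other 4.

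Genes of later steps had no B above 0. Elovl6, which lengthens palmitate, differed by -1.39 ± 0.33 (SE) (adjusted p = 0.257). Scd1, which puts the first double bond into stearate, differed by -0.66 ± 0.15 (SE) (adjusted p = 0.256). Agpat2 and Dgat2, acyltransferases of triglyceride synthesis, differed by -1.07 ± 0.29 (SE) and -0.87 ± 0.20 (SE) (adjusted p = 0.33 and 0.256). The desaturases Fads1 and Fads2, which act on dietary polyunsaturated fatty acids, differed by -0.01 ± 0.13 (SE) and -0.07 ± 0.15 (SE). Scd2, Elovl5 and Mid1ip1 were the 3 list members with a positive difference, from 0.05 to 0.15. Srebf1, which encodes SREBP1, differed by -0.15 ± 0.11 (SE) (adjusted p = 0.632). Its level reports the transcript and not the cleaved, active protein.

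Fat cell markers had mostly negative differences as well. Among 12 of 14 white adipocyte genes measured, 5 had a p under 0.05 in the lower direction and none in the higher, with a median of -0.30. Among 11 of 12 brown adipocyte genes measured, 6 did, again with none higher, and a median of -0.50. These counts were 3 and 0 without replicates 9 and 10. Mean log2 levels of the white list ran from 8.99 to 10.14 (median 9.43) in the diabetic and from 9.67 to 10.18 (median 9.93) in the non-diabetic aortas, and of the brown list from 8.68 to 10.29 (median 9.40) in the diabetic and from 9.42 to 10.20 (median 10.03) in the non-diabetic aortas. In Apoe null aortas 3 of the 4 diabetic arrays lay below all non-diabetic ones on both lists, and replicate 2 did not. In Apoe/RAGE null aortas the groups overlapped on both lists, with list medians of -0.08 and -0.16 against -0.55 for lipogenesis. In whole tissue, fewer cells of a type and less RNA per cell cannot be told apart. With the white and brown scores as covariates, Fasn differed by -1.41 ± 0.27 (SE), an adjusted p of 0.994, and no probe set had B above 0.

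Single fat genes varied in size. Lep, the adipokine leptin, read from 3.10 to 4.53 (median 3.44) in the diabetic and from 3.66 to 5.52 (median 4.10) in the non-diabetic aortas and differed by -0.76 ± 0.24 (SE) (adjusted p = 0.387). Lipe, hormone-sensitive lipase, differed by -0.62 ± 0.22 (SE), with -1.04 in Apoe null and -0.21 in Apoe/RAGE null aortas. Plin4, a lipid droplet protein, differed by -0.32 ± 0.09 (SE) (adjusted p = 0.36). Ucp1, the uncoupling protein of brown fat, was at high level throughout, from 10.48 to 12.31 (median 11.08) in the diabetic and from 11.70 to 12.20 (median 12.08) in the non-diabetic aortas. It differed by -0.71 ± 0.24 (SE) (adjusted p = 0.397) and its groups overlapped. Cidea, a lipid droplet protein of brown fat, differed by -0.62 ± 0.21 (SE) (adjusted p = 0.397).

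**Figure D2:**
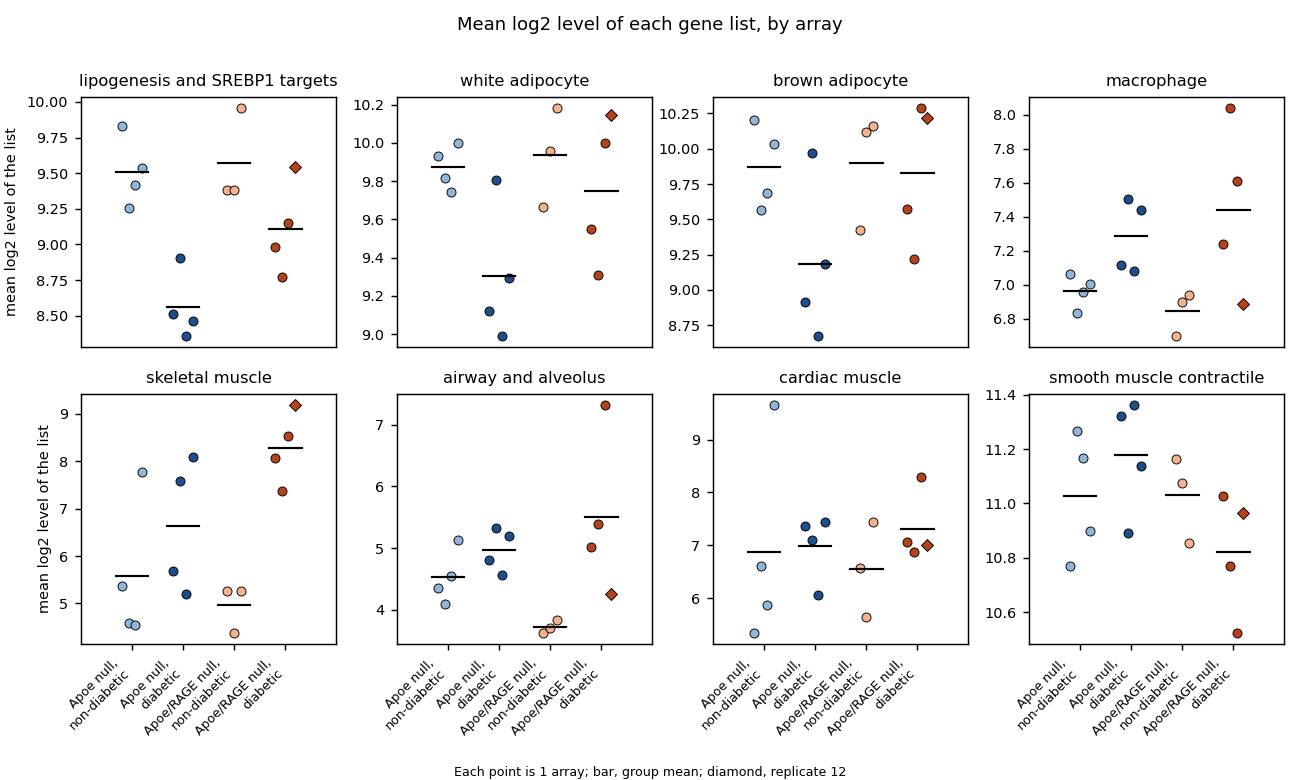
Mean log2 level of 8 gene lists (y axis) on each of the 15 arrays by group (x axis); points are arrays, bars group means and the diamond replicate 12. Lipogenesis is lowest in diabetic Apoe null aortas, the macrophage list is higher in diabetic arrays other than replicate 12, and skeletal muscle is high in all 4 diabetic Apoe/RAGE null arrays.

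Genes that burn or reroute fuel had mostly negative differences too. Of 18 glycolysis, glucose transport and pentose phosphate genes measured of 21, 10 had a p under 0.05 in the lower direction and none in the higher (median -0.24). The count was 6 without replicates 9 and 10. Tkt, transketolase of the pentose phosphate pathway, had B above 0. It read from 11.08 to 11.99 (median 11.41) in the diabetic and from 11.76 to 12.56 (median 11.93) in the non-diabetic aortas and differed by -0.58 ± 0.12 (SE) (adjusted p = 0.25). Taldo1, transaldolase of the same pathway, differed by -0.58 ± 0.15 (SE) (adjusted p = 0.322). Pfkl and Pkm, phosphofructokinase and pyruvate kinase of glycolysis, differed by -0.90 ± 0.24 (SE) and -0.46 ± 0.13 (SE) (adjusted p = 0.33 and 0.336).

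Of 19 fatty acid oxidation and ketone genes measured of 22, 6 had a p under 0.05, all lower (median -0.37). Hadha, part of the mitochondrial trifunctional protein, differed by -0.60 ± 0.21 (SE), and Cpt2, of the carnitine shuttle, by -0.61 ± 0.22 (SE) (adjusted p = 0.397 and 0.423). Of 20 oxidative phosphorylation genes measured of 22, 4 had a p under 0.05, all lower (median -0.23). Sdha, of complex II, differed by -0.39 ± 0.16 (SE) (adjusted p = 0.458). Both counts rested on single arrays. With 1 array left out the fatty acid oxidation count ran from 2, without replicate 3, 10 or 15, to 12, without replicate 2, and was 10 without replicate 12. The oxidative phosphorylation count ran from 0, without replicate 1, 3, 8, 9, 10 or 15, to 14, without replicate 2, and was 9 without replicate 12. With replicates 9 and 10 left out, neither list had a gene with a p under 0.05. Both medians were larger in Apoe null (-0.59 and -0.38) than in Apoe/RAGE null aortas (-0.09 and -0.10), as were those of the brown adipocyte list. That order was not tested.

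Cholesterol synthesis genes had smaller differences than those of fatty acid synthesis. Of 14 genes measured of 18, 3 had a p under 0.05, all lower, with a median of -0.15. Pmvk, phosphomevalonate kinase, read from 5.82 to 6.40 (median 6.26) in the diabetic and from 6.43 to 7.18 (median 6.500) in the non-diabetic aortas, and its diabetic and non-diabetic arrays did not overlap over the whole series. It differed by -0.53 ± 0.12 (SE) (adjusted p = 0.256). Fdft1, squalene synthase, and Dhcr7, of the last step, differed by -0.28 ± 0.10 (SE) and -0.25 ± 0.11 (SE). Hmgcs1, an early enzyme, differed by -0.01 ± 0.11 (SE), and Srebf2, the main transcription factor of the pathway, by -0.03 ± 0.12 (SE).

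The insulin signalling list itself was near balance. Of 20 genes, 1 had a p under 0.05 in each direction, and the median was -0.01. Without replicate 12, 2 were higher and 3 lower. Igf1, insulin-like growth factor 1, differed by 0.26 ± 0.11 (SE), and Pik3r1, the regulatory subunit of phosphoinositide 3-kinase, by -0.21 ± 0.09 (SE) (adjusted p = 0.47 and 0.486). Among 18 circadian clock genes, 2 were higher and 1 lower at a p under 0.05. Clock, the core activator, differed by 0.38 ± 0.09 (SE) (adjusted p = 0.257), and Nr1d1, the repressor REV-ERB alpha, by 0.55 ± 0.19 (SE) (adjusted p = 0.401). Of 16 glucocorticoid-induced genes and metallothioneins, 1 was higher and 3 lower. Zbtb16, a transcription factor that glucocorticoids induce, differed by -0.55 ± 0.16 (SE) (adjusted p = 0.367).

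Among genes higher in diabetes, the smallest p was that of Emp1, an epithelial membrane protein. It read 8.997, 8.99, 8.88 and 9.07 in diabetic and 8.19, 8.41, 8.42 and 8.34 in non-diabetic Apoe null aortas. In Apoe/RAGE null aortas it read 8.72, 8.599, 8.78 and 8.07 in diabetic and 8.20, 7.95 and 8.004 in non-diabetic mice. Replicate 12 fell among the non-diabetic arrays, and every other diabetic array lay above all 7 of them. The difference was 0.57 ± 0.10 (SE) (adjusted p = 0.206), and without replicate 12 it was 0.65 (adjusted p = 0.00236). Tmem82, a transmembrane protein, read from 4.32 to 4.95 (median 4.64) in the diabetic and from 3.92 to 4.22 (median 4.14) in the non-diabetic aortas. It differed by 0.52 ± 0.09 (SE), with no overlap over the series.

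Other genes with B above 0 in the higher direction had varied roles. Gadd45a, a growth arrest gene induced by DNA damage, differed by 0.49 ± 0.09 (SE). Slc5a3, which carries the osmolyte myo-inositol into cells, read from 7.53 to 8.55 (median 8.26) in the diabetic and from 7.31 to 7.85 (median 7.62) in the non-diabetic aortas and differed by 0.61 ± 0.12 (SE). Cilp, a matrix protein of cartilage and fibrous tissue, differed by 0.75 ± 0.14 (SE), with 0.41 in Apoe null and 1.09 in Apoe/RAGE null aortas. Nek6, a mitotic kinase, differed by 0.48 ± 0.10 (SE) with no overlap over the series. Pf4, a platelet chemokine, differed by 0.47 ± 0.10 (SE), Tspan6, a tetraspanin, by 0.44 ± 0.09 (SE), and Slc25a34, of the mitochondrial carrier family, by 0.68 ± 0.14 (SE). Adjusted p for these 7 lay between 0.206 and 0.250. Without replicate 12 each passed, with adjusted p from 0.0142 to 0.0487.

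Genes lower in diabetes outside the metabolic lists had varied roles. Mipol1 differed by -0.47 ± 0.09 (SE) and Echdc1, which removes a side product of acetyl-CoA carboxylase, by -1.005 ± 0.22 (SE). Ccl27a, a chemokine, read from 6.13 to 6.63 (median 6.37) in the diabetic and from 6.68 to 6.80 (median 6.76) in the non-diabetic aortas and differed by -0.34 ± 0.07 (SE), with no overlap over the series. Avpr1a, the vasopressin receptor of smooth muscle, differed by -0.40 ± 0.09 (SE), the same in both genotypes to 2 decimals. Osbpl6, of the oxysterol-binding protein family, differed by -0.38 ± 0.08 (SE), Naa60, an N-terminal acetyltransferase, by -0.26 ± 0.06 (SE), and Slc1a5, a glutamine transporter, by -0.42 ± 0.09 (SE).

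Macrophage genes were higher in most diabetic arrays. Of 18 measured of 19, 13 had a p under 0.05 in the higher direction, against 5.87% of all genes, and none in the lower. None had B above 0. The median was 0.41, with 0.33 in Apoe null and 0.54 in Apoe/RAGE null aortas. The mean log2 level of the list was 7.12, 7.504, 7.08 and 7.44 in diabetic and 7.06, 6.83, 6.95 and 7.01 in non-diabetic Apoe null aortas. The level was 7.24, 8.04, 7.61 and 6.88 in diabetic Apoe/RAGE null aortas, replicates 9 to 12 in order, and 6.70, 6.90 and 6.94 in non-diabetic ones. Within Apoe null the groups did not overlap, and within Apoe/RAGE null only replicate 12 overlapped. Without replicate 12, 14 had a p under 0.05 and 4 passed the adjusted threshold, all higher, as did 173 of all 45037 probe sets in that direction. Without replicates 9 and 10, 13 had a p under 0.05.

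Cd68, a lysosomal protein of macrophages, read from 5.46 to 6.98 (median 6.28) in the diabetic and from 5.07 to 5.61 (median 5.29) in the non-diabetic aortas and differed by 0.85 ± 0.19 (SE) (adjusted p = 0.256). Lyz2, lysozyme, differed by 0.91 ± 0.24 (SE) and Fcgr3, an Fc receptor for immunoglobulin G, by 0.52 ± 0.12 (SE). Laptm5 and Tyrobp, found in most leukocytes, differed by 1.001 ± 0.31 (SE) and 0.71 ± 0.24 (SE). Ctss, the lysosomal protease cathepsin S, differed by 0.84 ± 0.28 (SE). Not all macrophage genes took part. Adgre1, which encodes F4/80, differed by 0.14 ± 0.15 (SE), Cd163, a scavenger receptor, by -0.16 ± 0.11 (SE), and Trem2, of lipid-laden macrophages, by 0.00 ± 0.07 (SE) (adjusted p = 0.757, 0.62 and 0.993).

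Complement genes went with them. All 12 measured of 16 had a positive difference, against 47% of all genes, and 7 had a p under 0.05 (median 0.29). C1qb, a chain of the C1q recognition complex that macrophages secrete and that is also on the macrophage list, read from 8.10 to 9.66 (median 8.84) in the diabetic and from 8.01 to 8.498 (median 8.11) in the non-diabetic aortas. It differed by 0.63 ± 0.18 (SE) (adjusted p = 0.351). C3ar1, the receptor of the C3a fragment, differed by 0.48 ± 0.14 (SE) (adjusted p = 0.351). Of 14 antigen presentation genes none had a p under 0.05, and their median of 0.26 was 0.08 without replicate 10.

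Adhesion molecules that recruit leukocytes were among 6 of 16 vascular inflammation genes with a p under 0.05, all higher (median 0.20). Selp, P-selectin of platelets and endothelium, had B above 0. It read from 5.98 to 7.30 (median 6.76) in the diabetic and from 5.42 to 6.47 (median 6.004) in the non-diabetic aortas and differed by 0.78 ± 0.16 (SE) (adjusted p = 0.25). Vcam1 and Icam1, ligands of leukocyte integrins, differed by 0.75 ± 0.23 (SE) and 0.62 ± 0.20 (SE). Cd44, a hyaluronan receptor, differed by 0.54 ± 0.14 (SE) (adjusted p = 0.322). The Vcam1 and Selp differences were much the same in both genotypes, 0.74 and 0.75 for Vcam1 and 0.86 and 0.70 for Selp, Apoe null first. Without replicate 12, 3 of the 16 passed the adjusted threshold, all higher, as did 173 of all 45037 probe sets in that direction. Of 14 endothelial genes 3 had a p under 0.05, all higher, among them the tight junction gene Cldn5 at 0.59 ± 0.16 (SE).

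Of 15 interferon-stimulated genes measured of 18, 5 had a p under 0.05, all higher (median 0.21). Ifit1, an antiviral RNA-binding protein, read from 5.01 to 6.23 (median 5.46) in the diabetic and from 4.07 to 5.52 (median 4.76) in the non-diabetic aortas and differed by 0.78 ± 0.18 (SE) (adjusted p = 0.256). Oas1a and Oasl2, of the oligoadenylate synthetase family, differed by 0.29 ± 0.10 (SE) and 0.33 ± 0.12 (SE). The count was 10 without replicate 12 and 2 without replicates 9 and 10. None of 8 B and plasma cell genes and none of 13 T and NK cell genes had a p under 0.05. Without replicate 10 their medians went from 0.69 to 0.25 and from 0.18 to -0.04.

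RAGE ligands and genes of methylglyoxal handling gave 4 of 11 with a p under 0.05 in the higher and 2 in the lower direction. S100a4, a calcium-binding protein that binds RAGE, had B above 0. It read 10.99, 10.53, 10.79 and 11.03 in diabetic and 9.94, 10.01, 10.07 and 9.80 in non-diabetic Apoe null aortas, with no overlap. In Apoe/RAGE null aortas it read 10.32, 10.41, 9.93 and 9.84 in diabetic and 10.08, 9.89 and 9.67 in non-diabetic mice, with overlap. The difference was 0.88 in the first genotype and 0.25 in the second, and 0.56 ± 0.11 (SE) over both (adjusted p = 0.206). Of all genes, 4.52% were higher in diabetic Apoe null aortas without overlap. S100a8 and S100a9, which form calprotectin in neutrophils, differed by 1.54 ± 0.35 (SE) and 1.19 ± 0.31 (SE). Both were larger in Apoe/RAGE null (2.64 and 2.32) than in Apoe null aortas (0.44 and 0.06), with interaction p of 0.0074 and 0.0024 that did not pass adjustment. Without replicate 12 both passed in limma, S100a8 at 1.75 (adjusted p = 0.0291) and S100a9 at 1.38 (adjusted p = 0.0415). They differed by 1.26 and 0.93 without replicates 9 and 10 (adjusted p = 0.712 and 0.817). Of 10 neutrophil genes 4 had a p under 0.05, all higher.

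Among matrix genes, those for proteases were the ones most often higher. Of 17 proteases and inhibitors measured of 20, 6 had a p under 0.05, all higher, though the median was 0.02. Mmp3, stromelysin, read from 7.49 to 9.23 (median 8.82) in the diabetic and from 7.78 to 8.08 (median 7.81) in the non-diabetic aortas and differed by 0.82 ± 0.19 (SE) (adjusted p = 0.257), and by 0.99 (adjusted p = 0.00564) without replicate 12. Timp1, an inhibitor of these enzymes, differed by 0.36 ± 0.11 (SE), and Adamts5, which cuts proteoglycans, by 0.29 ± 0.09 (SE). Of 25 fibrillar matrix genes measured of 26, 2 were higher and 2 lower at a p under 0.05. The lower ones included the main fibrillar collagen genes Col1a1 at -0.55 ± 0.19 (SE) and Col3a1 at -0.20 ± 0.09 (SE) (adjusted p = 0.397 and 0.491). Neither kept a p under 0.05 without replicates 9 and 10. Dpep1, a membrane dipeptidase listed with adventitial fibroblast genes, differed by 0.43 ± 0.11 (SE).

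Of 21 TGF-beta and thrombospondin genes, 2 had a p under 0.05 in the higher and 1 in the lower direction. Smad3, which carries TGF-beta signals to the nucleus, had B above 0. It read from 6.78 to 7.49 (median 7.33) in the diabetic and from 6.71 to 6.98 (median 6.95) in the non-diabetic aortas and differed by 0.38 ± 0.08 (SE) (adjusted p = 0.256), alike in Apoe null (0.42) and Apoe/RAGE null (0.34) aortas. Other probe sets of Smad3 gave -0.18 and 0.09. Thbs1, thrombospondin 1, which activates latent TGF-beta, differed by 0.57 ± 0.18 (SE) over both. That value averaged 1.32 ± 0.24 (SE) in Apoe null with -0.17 ± 0.26 (SE) in Apoe/RAGE null aortas. Ltbp2, of the latent TGF-beta binding protein family, differed by -0.23 ± 0.06 (SE) (adjusted p = 0.348).

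Chaperones of the endoplasmic reticulum mostly had small positive differences. Of 21 genes, 7 had a p under 0.05, all higher, none had B above 0, and 17 had a positive difference in both genotypes, against 24.2% of all genes. The median was 0.13, with 0.17 in Apoe null and 0.07 in Apoe/RAGE null aortas. Hspa5, the main chaperone of this compartment (BiP), read from 10.68 to 11.56 (median 11.28) in the diabetic and from 10.48 to 11.06 (median 10.78) in the non-diabetic aortas and differed by 0.41 ± 0.10 (SE) (adjusted p = 0.262). Xbp1, a transcription factor of the unfolded protein response, differed by 0.40 ± 0.11 (SE). Manf and Sdf2l1, which are induced by the same response, differed by 0.39 ± 0.12 (SE) and 0.49 ± 0.15 (SE). Ddit3, which encodes the stress factor CHOP, differed by 0.18 ± 0.07 (SE) (adjusted p = 0.453).

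Cytosolic chaperones had a positive median difference in Apoe null aortas alone. Over both genotypes 6 of 19 had a p under 0.05, all higher, and the list median was 0.14. It was 0.29 in Apoe null and -0.11 in Apoe/RAGE null aortas. Hsph1, a large HSP70-family protein that exchanges nucleotide on HSP70, had B above 0. It read 9.83, 9.45, 9.35 and 9.48 in diabetic and 8.41, 8.37, 8.46 and 8.38 in non-diabetic Apoe null aortas, with no overlap. In Apoe/RAGE null aortas it read 8.85, 8.47, 9.24 and 8.03 and 8.51, 8.42 and 8.30, with overlap. The pooled difference was 0.68 ± 0.14 (SE) (adjusted p = 0.248), from 1.12 and 0.24. A lack of overlap in Apoe null aortas, in the higher direction, was found in 4.52% of all genes.

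The promoter of Hsph1 is shown for the heat shock element in it, in capitals (RefSeq, GRCm38.p6, chr5:149636266-149636565, minus strand, 5′ to 3′).
Hsph1: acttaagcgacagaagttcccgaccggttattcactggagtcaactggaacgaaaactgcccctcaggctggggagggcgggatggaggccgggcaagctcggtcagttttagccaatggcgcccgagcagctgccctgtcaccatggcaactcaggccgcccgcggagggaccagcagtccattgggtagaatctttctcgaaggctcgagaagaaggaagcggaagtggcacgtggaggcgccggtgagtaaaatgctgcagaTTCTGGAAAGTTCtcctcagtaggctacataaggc
The element searched was GAANNTTC followed by NNGAA, on both strands, and the match lies 15 to 27 bases downstream of the start base. It was in 5 of 22 promoters of the chaperone list (22.7%) and in 0.603% of all promoters. Those 5 belong to 4 of 16 genes, Chordc1, Hspd1, Hspe1 and Hsph1. The 2 promoters of Hsph1 overlap and hold the same site. The shorter GAANNTTC, which the longer form contains, was in 11 of the 22 (50%) and in 7.86% of all.

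The diabetes effect was next compared between the genotypes, which share no arrays. No probe set passed the interaction test (0%), and none had B above 0. In 1033 probe sets (2.29%) the p was under 0.05 with the effect higher in Apoe/RAGE null, and in 2218 (4.92%) with it lower. The smallest adjusted p was 0.675, and no probe set passed without replicate 12 or without replicates 9 and 10. The genes below were taken by smallest interaction p, apart from a chaperone gene that came from the heat shock list. All are given as values. Dnaja1, a co-chaperone of HSP70, differed by 0.76 in Apoe null and -0.12 in Apoe/RAGE null aortas. Chordc1, which binds HSP90, differed by 0.48 and -0.11. Hspa1b, an inducible HSP70, read 11.57, 10.63, 11.51 and 11.62 in diabetic and 9.82, 10.07, 10.18 and 10.19 in non-diabetic Apoe null aortas. In Apoe/RAGE null aortas it read 10.65, 9.71, 9.71 and 9.604 and 10.22, 10.17 and 9.73, and the differences were 1.27 and -0.12.

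In 3 of the genes with the smallest interaction p the groups did not overlap in opposite directions. Picking genes by that p on the same arrays favours such a pattern, and its share over all genes was not counted. Tshz3, a zinc finger transcription factor, differed by 0.59 in Apoe null and -0.26 in Apoe/RAGE null aortas. Ereg, epiregulin, a ligand of the EGF receptor, read 5.86, 5.53, 6.27 and 6.11 and 4.41, 5.49, 5.44 and 5.24 in diabetic and non-diabetic Apoe null aortas. It read 4.56, 4.12, 4.30 and 4.71 and 4.99, 5.43 and 5.39 in the Apoe/RAGE null groups. The differences were 0.80 and -0.85, which cancelled to -0.03 over both. Pip5k1b, a kinase that makes phosphatidylinositol bisphosphate, differed by 0.45 and -0.37. Eepd1, Tbx1, Chac1, Ngp and Erdr1 differed the other way, with the more positive effect in Apoe/RAGE null aortas. Ngp, a neutrophil granule gene, gave -0.41 in Apoe null and 0.44 in Apoe/RAGE null, and Chac1, a glutathione-degrading enzyme, -0.40 and 0.69. Eepd1 gave -0.63 and 0.09, Tbx1, a T-box transcription factor, -0.13 and 0.69, and Erdr1 -1.43 and 0.48.

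**Figure D3:**
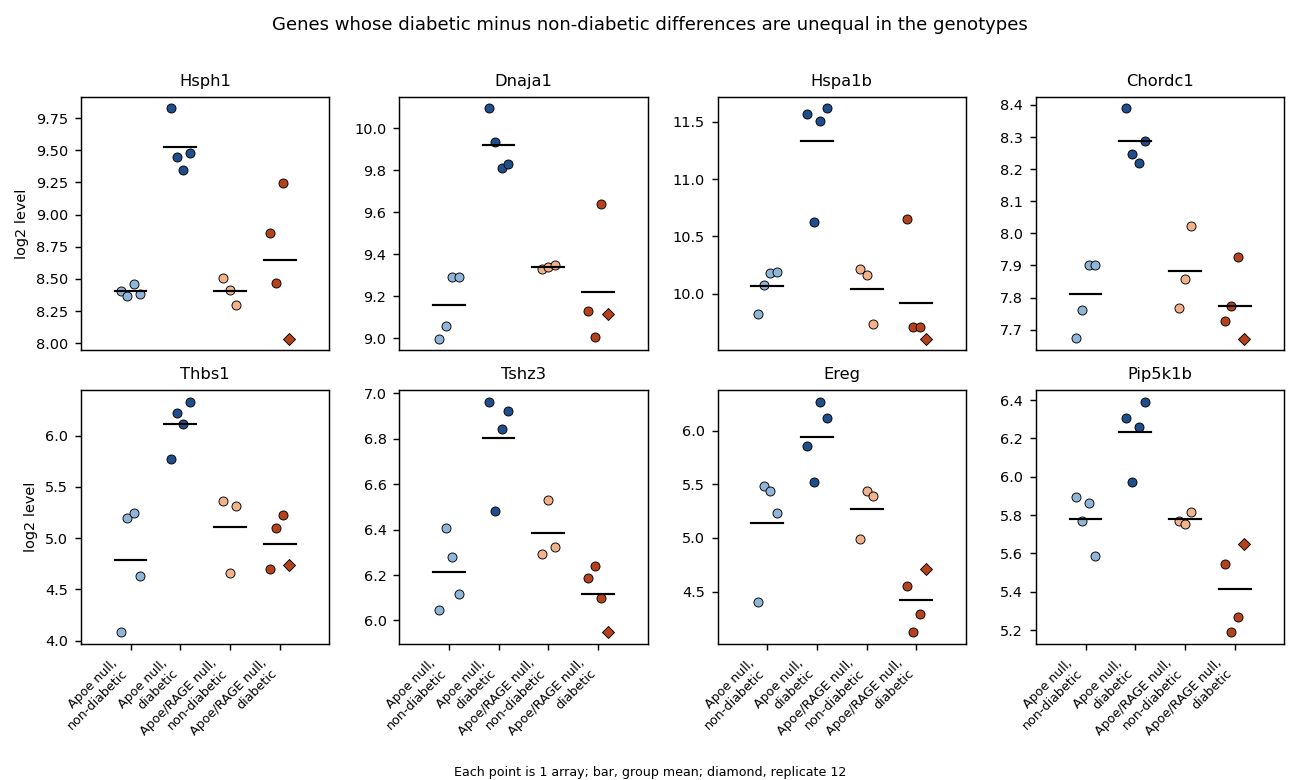
Log2 level of 8 genes on each of the 15 arrays (y axis) by group (x axis); points are arrays, bars group means and the diamond replicate 12. The 4 chaperone genes are higher in diabetic than non-diabetic Apoe null aortas without overlap, as are 4.52% of all genes. Tshz3, Ereg and Pip5k1b, picked by interaction p, separate the groups of the 2 genotypes in opposite directions.

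Genes taken from one genotype were then read in the other. Of 259 genes lower in diabetic Apoe null aortas at a p under 0.01, 76.8% were also lower in Apoe/RAGE null aortas, against 55.8% of all genes. Of 407 genes higher in Apoe null, 46.7% were also higher in Apoe/RAGE null, against 44.2% of all genes. Read from Apoe/RAGE null, 84.2% of 158 higher genes were higher in Apoe null (49.8% of all genes), and 52.4% of 124 lower genes were lower there (50.2%). Across 18193 genes, which are not independent, the 2 sets of differences had a Pearson correlation of 0.271 and a Spearman correlation of 0.13. These shares rested on the arrays that stood apart. Without replicates 9 and 10, 28% of 428 genes lower in Apoe null were lower in Apoe/RAGE null (51.6% of all genes), and 75.5% of 94 genes higher in Apoe/RAGE null were higher in Apoe null (49.8%). Without replicate 12, 86.7% of 300 genes lower in Apoe null were lower in Apoe/RAGE null (56.6%), and 68.8% of 474 higher genes were higher there (43.4%).

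**Figure D4:**
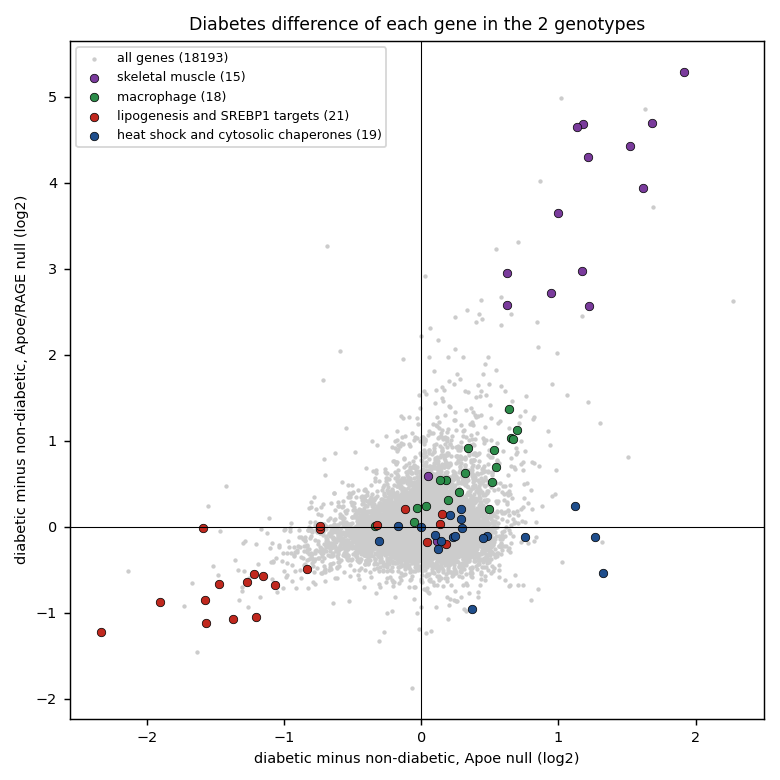
Diabetic minus non-diabetic log2 difference of each of 18193 genes in Apoe null (x axis) and Apoe/RAGE null aortas (y axis), with 4 gene lists in colour. Most lipogenesis genes lie at the lower left, macrophage and skeletal muscle genes at the upper right, and several chaperone genes are positive on the x axis and near or below 0 on the y axis.

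Few genes separated all diabetic from all non-diabetic arrays. Of 18193 genes, 5 did so in the higher direction (0.0275%) and 8 in the lower (0.044%). The 5 were Tmem82, Nek6, Vsig4, Dyrk2 and Gimap3, and the lower ones included Ccl27a, Pmvk, Dscam, Amn1, Trappc12, Neto1 and Nacc1, apart from a provisional symbol. These were named after their values were seen. Vsig4, a complement receptor of tissue macrophages, differed by 0.86 ± 0.18 (SE). Within each genotype taken alone, 14 genes separated in the higher direction in both (0.077%) and 19 in the lower (0.104%). The 19 included Fasn, Slc25a1, Acaca, Pmvk and Tm7sf2, the last a sterol reductase of cholesterol synthesis.

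The lists with the largest median differences were those of skeletal muscle and airway, tissues other than the vessel wall. Of 15 skeletal muscle genes, 13 had a p under 0.05 in the higher direction and 6 had B above 0, with a median of 2.32. It was 1.17 in Apoe null and 3.65 in Apoe/RAGE null aortas. Myh1, a fast myosin heavy chain, read 6.59, 8.62, 6.66 and 9.51 in diabetic and 5.99, 4.17, 4.53 and 9.03 in non-diabetic Apoe null aortas. It read 10.45, 10.18, 9.54 and 10.25 and 5.75, 3.97 and 4.71 in the Apoe/RAGE null groups. All 4 diabetic Apoe/RAGE null aortas were high, and within Apoe null 2 diabetic arrays and non-diabetic replicate 8 were high. The difference was 3.604 ± 0.66 (SE) (adjusted p = 0.206). Tnnt3, fast troponin T, differed by 2.97 ± 0.59 (SE), Ryr1, the calcium release channel of skeletal muscle, by 1.79 ± 0.37 (SE), and Myhas, a noncoding transcript of the myosin locus, by 2.45 ± 0.48 (SE). Casq1, calsequestrin 1, differed by -0.02 ± 0.12 (SE) and Mb, myoglobin, by 0.32 ± 0.71 (SE).

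Airway genes were uneven over other arrays than the muscle genes. The mean log2 level of the skeletal muscle list was highest in replicate 12, at 9.19, while the airway list was highest in replicate 11, at 7.32, and lowest of the diabetic arrays in replicate 12, at 4.26. Of 11 measured of 12, 5 were higher and 1 lower at a p under 0.05, and 2 had B above 0. Scgb1a1, a secretory protein of airway club cells, read 7.04, 7.77, 6.33 and 7.39 and 5.64, 5.52, 6.30 and 7.004 in diabetic and non-diabetic Apoe null aortas. In the Apoe/RAGE null groups it read 8.42, 8.94, 10.90 and 5.59 and 3.12, 3.31 and 3.98. Replicate 11 was the highest and replicate 12 the lowest of the diabetic Apoe/RAGE null arrays, though above the 3 non-diabetic ones. Bpifa1, an airway mucosal protein, differed by 3.25 ± 0.71 (SE) and Scgb1a1 by 3.004 ± 0.57 (SE). Both passed without replicate 12, Bpifa1 at 3.74 (adjusted p = 0.0167) and Scgb1a1 at 3.48 (adjusted p = 0.00322), and the list median went from 1.39 to 0.87 without replicate 11. None of 12 cardiac muscle genes had a p under 0.05, and replicate 8 held the highest cardiac mean log2 level, 9.65 against 5.35 to 8.29 on the other arrays. With the skeletal muscle score as a covariate, Fasn differed by -2.11 ± 0.31 (SE), an adjusted p of 0.152, and 151 probe sets had B above 0. The part of dissected neighbouring tissue in other results was not tested.

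**Figure D5:**
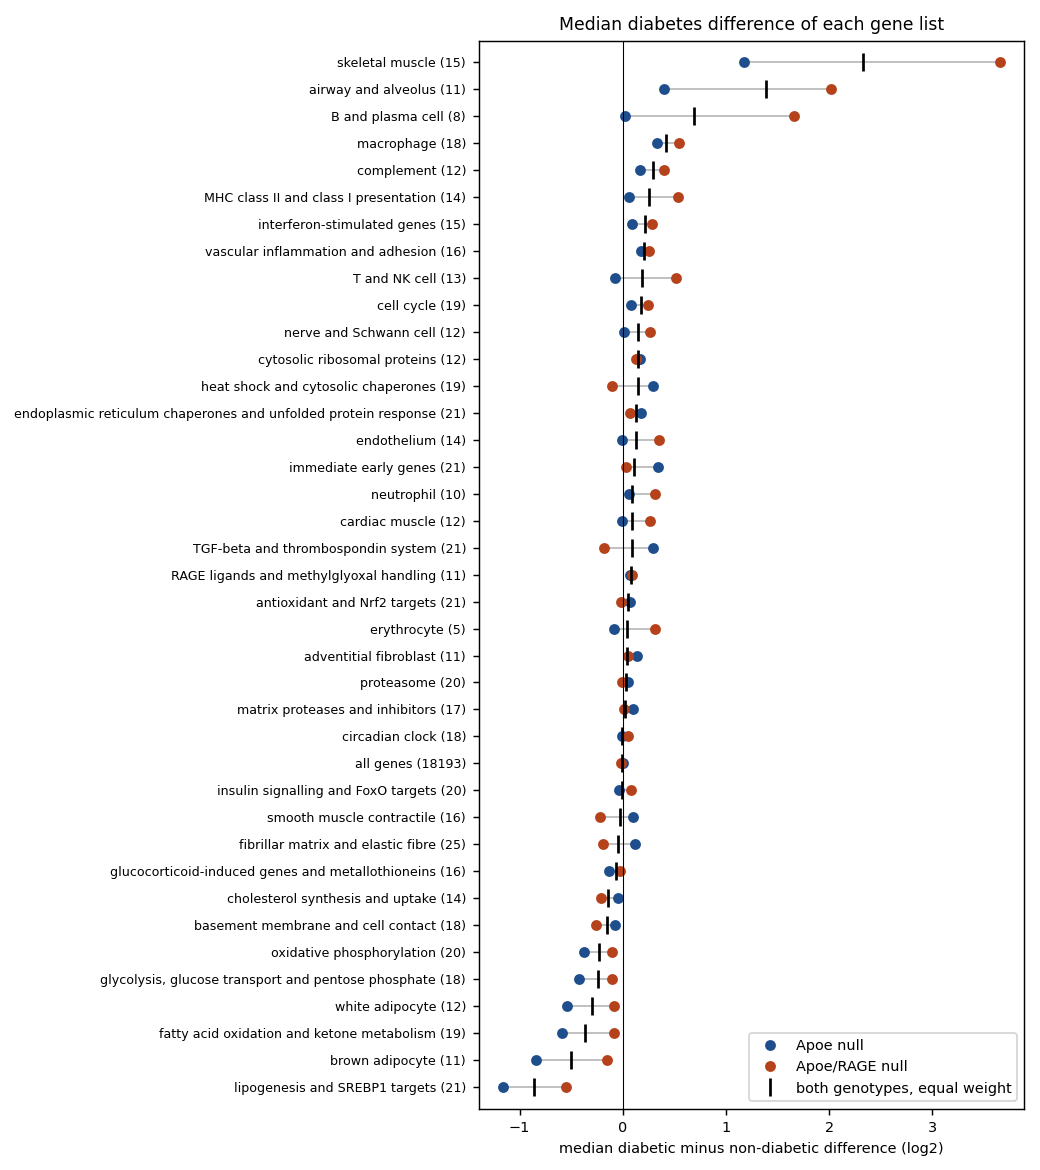
Median diabetic minus non-diabetic log2 difference (x axis) of 38 gene lists and of all genes (y axis, number of genes measured in brackets), for Apoe null, Apoe/RAGE null and both with equal weight. Lipogenesis has the lowest median of both genotypes together and skeletal muscle the highest. Several lists, heat shock, TGF-beta and smooth muscle contractile among them, have genotype medians on opposite sides of 0.

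The vessel's own contractile genes had differences of opposite sign in the 2 genotypes. None of 16 had a p under 0.05 over both, with a median of -0.03. The median was 0.10 in Apoe null and -0.22 in Apoe/RAGE null aortas, and 0 of the 16 genes had the same sign in both. Of all genes, 24.2% were positive in both and 30.2% negative in both. The list's mean log2 level overlapped between diabetic and non-diabetic arrays within each genotype. None of 20 proteasome genes had a p under 0.05, with a median of 0.03. All 12 ribosomal protein genes measured of 20 had a positive difference in both genotypes, against 24.2% of all genes. Their median was 0.15, and 5 had a p under 0.05. For this list and those below, the share of all genes at that p was 5.87% higher and 5.84% lower. The ribosomal count was 8 without replicate 12 and 0 without replicates 9 and 10. Over all genes the count in the higher direction ran from 735 to 1679 with single arrays left out. Of 18 basement membrane genes 2 had a p under 0.05, both lower, and 5 without replicate 12. Immediate early genes gave 5 of 21 higher at a p under 0.05, and 1 without replicate 10 or without both 9 and 10. Of 21 antioxidant genes 2 were higher and 1 lower, with 4 higher without replicate 12. Of 19 cell cycle genes 3 were higher, 1 to 5 with single arrays left out and 5 without replicate 12. Their median was 0.18, and 0.02 without replicate 10. The erythrocyte list had 0 of 5, the nerve list 1 of 12 in each direction, and the fibroblast list 2 higher and 1 lower of 11.

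Another probe set of the same gene disagreed in sign for Acss2, Mipol1, Slc1a5, Osbpl6, Sdha, Fdft1, Hmgcs1, Srebf2, Fads1, Fads2, Scd2, Elovl5, Myh1, Mb, Hspa5, Cd44, Laptm5, Adamts5, Smad3, Clock and Erdr1 among the genes given with values above. In Acss2 that probe set differed by 0.08 and in Myh1 by -0.10.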

How the data were processed

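Affymetrix mouse arrays, 1 per mouse, measured RNA of 15 whole aortas. The deposited values are log2 levels made by the authors with RMA, per the submitters' processing notes. Whether 1 RMA run covered all arrays is not given in the sources used here, and the values were used as deposited. Array medians spanned 4.35 to 4.42, and no 2 arrays were duplicates. For arrays, their number limits the precision. P-values measure only the spread between these mice.

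Of 45101 probe sets, 64 controls were left out. Of the 45037 tested, 34945 carried 1 gene, 932 several and 9160 none named here. Symbols came from the array annotation, and 34741 matched a RefSeq gene table (GRCm38.p6) by Entrez ID. For genes, the probe set with the highest mean stood for each of 18193. The linear model held a mean for each of the 4 groups and all 15 arrays (limma 3.58.1, R 4.3.3). P-values were adjusted by Benjamini-Hochberg over the 45037 probe sets and called at 0.05. B rests on limma's prior share of changed probe sets of 0.01. List levels are means of members' log2 values. The script was tested on simulated data. Alternatives are given in the closing section.

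The members and the 38 lists were chosen with earlier results of these data known. Named were the 15 genes with the smallest p in each direction, any with the largest differences among those called, the 4 smallest p of each list, Ager, Apoe and, for the interaction, the 5 smallest p in each direction, without provisional symbols. Other genes, among them list members named to fill out a pathway, were chosen after their values were seen. Promoters came from a RefSeq table that held 17 of 21 lipogenesis and 16 of 19 measured chaperone genes. Plots were made in Python 3.11.15 (matplotlib 3.10.9).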

Additional observations from a re-analysis of the deposited data

Results flagged for a closer look

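In 24 of 381 groups of 4 arrays (6.3%), the highest or lowest array stood farther from the rest than Dixon's critical value for 4 arrays, 0.829. Chance gives about 1 in 20 such groups. Diabetic Apoe null replicate 2 was such an array in 6 genes. It was the highest of its group for Slc1a5 at 8.25, Taldo1 at 10.18, Cpt2 at 9.80 and Cldn5 at 7.29, and the lowest for Naa60 at 7.13 and Hspa1b at 10.63. Its B and plasma cell genes had a mean log2 level of 5.60, also the highest of the group. On both adipocyte lists it was the diabetic Apoe null array closest to the non-diabetic ones.

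Of the other diabetic Apoe null arrays, replicate 1 was lowest for Selp at 6.43 and replicate 4 lowest for the fibroblast list at 9.94. Replicate 3 was highest for Slc25a34 at 7.36 and Oas1a at 5.90, and lowest for Dpep1 at 8.99. Among non-diabetic Apoe null arrays, replicate 5 was lowest for Avpr1a at 4.29, Adamts5 at 7.25 and the heat shock list at 8.97, and replicate 7 lowest for Ngp at 3.98. Replicate 8 was highest for Myhas at 6.77, Ryr1 at 4.50 and the nerve and Schwann cell list at 5.29, and lowest for Cd44 at 7.66. Among diabetic Apoe/RAGE null arrays, replicate 9 was highest for Hspa1b at 10.65 and replicate 11 highest for the cardiac muscle list at 8.29. Replicate 12 was highest for Ryr1 at 6.37 and lowest for Cilp at 7.27.

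Only genes picked by the smallest interaction p were searched for opposite separation. In 3 of them the diabetic arrays all lay above the non-diabetic ones in Apoe null and all below them in Apoe/RAGE null aortas. The effect in Apoe/RAGE null minus that in Apoe null was -0.85 for Tshz3, -1.65 for Ereg and -0.82 for Pip5k1b. The interaction test in limma gave an adjusted p of 0.675 for each, so none passed.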

How the results depend on the processing

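No paired analysis was possible because the replicate numbers run once through the series and pair no mice. At the adjusted threshold the pooled count was 1 over all arrays, 2 with array weights, 5 on Apoe null arrays alone and 12 on Apoe/RAGE null arrays alone. It was 0 in the additive model, with no genotype term, with a trended robust variance, without replicates 9 and 10, with the skeletal muscle score as covariate and with the adipocyte scores. It was 74 with B above 0 as the threshold, and 0 to 247 with single arrays left out. The count with B above 0 was 46 with no genotype term, 208 with array weights, 40 at 1 probe set per gene, 3 without replicates 9 and 10, 151 with the muscle score, 0 with the adipocyte scores, 132 on Apoe null and 0 on Apoe/RAGE null arrays, and 15 to 384 with single arrays left out. The highest was without replicate 12 and the lowest without replicate 15. Additive, quantile, dim-probe, variance and shared-probe settings kept that count within 1.5 times. The interaction count was 0 under every setting run.

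Lipogenesis genes with B above 0 numbered 7, and 5 to 11 with single arrays left out, 1 without replicates 9 and 10, and 0 with the adipocyte scores or on Apoe/RAGE null arrays alone. Skeletal muscle genes with B above 0 numbered 6, and 0 to 11 with single arrays left out. They numbered 10 with array weights, 1 in the additive model and 1 with no genotype term. They numbered 0 with a trended robust variance, without replicates 9 and 10, with either score, and on arrays of one genotype. On Apoe/RAGE null arrays alone no probe set had B above 0, but 12 passed the adjusted threshold, all higher. Myh1 at 5.29, Tnnt3 at 4.42, Myhas at 4.03 and Ryr1 at 2.95 were among them (limma, adjusted p from 0.0029 to 0.0135). Of 81 named genes, 4 changed sign, all on Apoe/RAGE null arrays alone: Dnaja1 at -0.12, Hspa1b at -0.12, Chordc1 at -0.11 and Thbs1 at -0.17. Over settings, 844 of their values kept sign and side of the threshold, 50 newly passed it and 18, all of Fasn, no longer did. The causes were not tested. B above 0 with other settings, and the shares across genotypes with arrays left out, were added after the data were seen. With 3 or 4 arrays a group, signal near background and the number of arrays limit what could be called.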

Other observations

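Without replicate 12, 136 of 18193 genes passed the adjusted threshold, the list members given above as passing without it among them. Genes outside the lists passed too, and the following were chosen after their values were seen. Nts, the peptide neurotensin, differed by 1.53 without replicate 12 (adjusted p = 0.0191) and by 1.33 ± 0.29 (SE) over all 15 arrays, with 1.22 in Apoe null and 1.45 in Apoe/RAGE null aortas. Esm1, a proteoglycan secreted by endothelial cells, differed by 0.58 without replicate 12 (adjusted p = 0.00641) and by 0.49 ± 0.11 (SE) over all arrays. Thbd, thrombomodulin, an anticoagulant receptor of endothelium, gave 0.39 and 0.32 ± 0.09 (SE), and Vegfc, a growth factor of lymphatic vessels, 0.37 and 0.28 ± 0.10 (SE). Apod, apolipoprotein D, gave 1.21 and 1.02 ± 0.25 (SE), with 0.92 in Apoe null and 1.11 in Apoe/RAGE null aortas. Nr4a3, a nuclear receptor and immediate early gene, gave 1.15 and 0.95 ± 0.27 (SE).

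Ddx21, an RNA helicase of ribosome assembly, gave 0.58 without replicate 12 (adjusted p = 0.00564) and 0.48 ± 0.11 (SE) over all arrays. Tsr1 and Gnl3, which also act in ribosome assembly in the nucleolus, gave 0.44 and 0.30 without replicate 12 (adjusted p = 0.0238 and 0.0250). Ctps, which makes the nucleotide CTP, gave 0.54 without it and 0.47 ± 0.11 (SE) over all arrays. Ugdh, which makes the sugar donor of glycosaminoglycans, gave 0.43 without it and 0.35 ± 0.10 (SE) over all arrays. None of these genes passed the adjusted threshold over all 15 arrays.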
